A study of Homo sapiens with 6 samples.

Results

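Perforin and the genes of the cytotoxic granule were followed in HCT116 cells, a human colorectal cancer cell line of epithelial origin. The set held 8 of the 60240 genes listed: PRF1, the granzymes GZMA, GZMB, GZMH, GZMK and GZMM, GNLY, which encodes granulysin, and SERPINB9, which encodes an inhibitor of granzyme B. It was chosen by gene name with the comparison of LSD1 KO and WT cells known, and on the question of whether PRF1 differed alone. The values of the 8 genes between the groups are therefore given as a description, without a test. RNA-seq of polyA RNA was performed on WT cells and on LSD1 KO cells, with 3 libraries each. LSD1 is a histone demethylase that removes methyl groups from H3K4, and its gene is listed as KDM1A. The LSD1 KO cells were made with CRISPR/Cas9 directed at exon 1 of LSD1 and were expanded from individual clones, and the sources used here do not say how many clones the 3 libraries represent. The study's methods state biological replicates for its experiments in general, but the labels do not tie these libraries to separate cultures, so p values measure only the spread between the libraries.

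Cytotoxic T cells and natural killer cells kill by releasing the content of lytic granules onto a target cell. Perforin makes pores in the target membrane, granzymes enter through them and cleave proteins that trigger cell death, and granulysin damages the membranes of microbes and infected cells. SERPINB9 binds and inactivates granzyme B, and it protects lymphocytes from their own granules and tumor cells from lymphocytes. Killing of this kind is a property of lymphocytes, and the comparison asks which of these genes had reads in an epithelial cancer line and how their levels differed without LSD1.

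The libraries held 25379279 to 29186963 counts each. Levels are given as CPM, the counts scaled to library size with TMM factors, and a count of 3, taken as the floor, equalled 0.0994 to 0.114 CPM. KDM1A fell from 223.1 ± 8.78 CPM in WT to 28.4 ± 1.30 CPM in LSD1 KO (SD, n = 3 each), a log2 fold change of -2.97 (SE 0.15, edgeR q = 0.000451). It was the 1 gene of 17672 tested (0.00566%) with q under 0.1 in the edgeR model without a replicate term. Libraries with replicate number 2 stood apart from the others in both groups on the first principal component, which held 45.9% of the variance. With the replicate number as a block, 282 genes passed (1.6%), and DESeq2 called 95 of the 25656 genes it gave a q value (0.37%).

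The promoters of PRF1, GZMB and SERPINB9 are shown as those of the pore former, of a granzyme without reads and of the abundant inhibitor. Each is the RefSeq sequence of GRCh38.p14 from 250 bases before to 50 bases after the start of the gene, on the minus strand, at chr10:70602692-70602991, chr14:24634141-24634440 and chr6:2903260-2903559. Capitals mark, on either strand, the ETS core GGAAGT, the GC box GGGCGG and the RUNX motif TGTGGT.
PRF1: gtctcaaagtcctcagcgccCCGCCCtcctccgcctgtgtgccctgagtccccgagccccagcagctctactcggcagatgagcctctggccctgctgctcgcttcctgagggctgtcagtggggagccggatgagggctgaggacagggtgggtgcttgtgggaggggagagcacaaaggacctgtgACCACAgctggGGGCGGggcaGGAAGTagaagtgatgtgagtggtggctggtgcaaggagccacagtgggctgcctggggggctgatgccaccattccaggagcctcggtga
GZMB: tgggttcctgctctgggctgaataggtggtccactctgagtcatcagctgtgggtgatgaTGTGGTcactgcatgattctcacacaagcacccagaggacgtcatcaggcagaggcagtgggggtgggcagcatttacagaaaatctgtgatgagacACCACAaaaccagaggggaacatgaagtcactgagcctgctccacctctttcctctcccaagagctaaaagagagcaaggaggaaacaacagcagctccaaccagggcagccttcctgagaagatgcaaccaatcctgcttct
SERPINB9: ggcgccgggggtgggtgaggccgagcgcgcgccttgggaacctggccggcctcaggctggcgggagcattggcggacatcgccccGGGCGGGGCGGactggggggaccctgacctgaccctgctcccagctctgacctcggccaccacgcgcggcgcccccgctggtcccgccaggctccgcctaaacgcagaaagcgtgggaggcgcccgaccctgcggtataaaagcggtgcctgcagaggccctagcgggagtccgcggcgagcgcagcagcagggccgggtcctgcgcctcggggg

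Sequences were found for 6 of the 8 members, and GZMK and GZMM had no entry. The PRF1 window held 9 CG dinucleotides, an observed-over-expected ratio of 0.285, and 31.1% of 35116 promoters of the same length had a lower ratio. GZMB and GZMA held 1 CG each, with ratios of 0.0481 and 0.0669, GZMH held none, and GNLY held 4, with a ratio of 0.183. SERPINB9 held 35, with a ratio of 0.819 that exceeded 70.3% of promoters. SERPINB9 thus had the CG-rich promoter among the 6 examined. GZMH, GZMB, GZMA and GNLY had the lowest ratios, and PRF1 came next, nearer to GNLY than to SERPINB9.

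In the PRF1 window, the ETS core lay 41 bases before the start, a GC box lay 51 bases before it and a second one, on the other strand, 230 bases before it. A RUNX motif on the other strand lay 62 bases before the start. Over all promoters, the ETS core was found in 22.8%, the GC box in 45.0% and the RUNX motif in 13.1%. Searches on both strands for the Snail-type E-box CAGGTG (20.6% of promoters), the GFI1 core AATC (69.0%) and the CRE TGACGT (7.98%), which are not capitalized, found none of them in the PRF1 window. GZMB held the RUNX motif at 2 places, and SERPINB9 held 2 GC boxes that overlap by 1 base. A match is a description of letters and was not tested for binding.

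**Figure D1:**
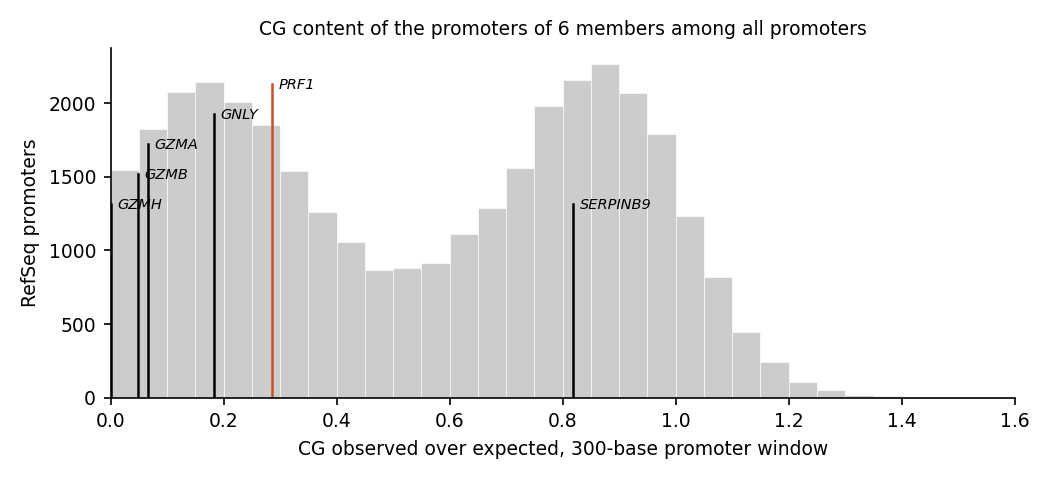
Number of RefSeq promoters (vertical axis) by the ratio of observed to expected CG dinucleotides in the window of 300 bases (horizontal axis), with lines at the ratios of 6 members. GZMH, GZMB, GZMA and GNLY lie at 0 to 0.183, PRF1 at 0.285 and SERPINB9 at 0.819; the height of a line carries no value.

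PRF1 was read in all 6 libraries and was higher in every LSD1 KO library than in any WT library. The gene (ENSG00000180644) lies on the minus strand at chr10:70597348-70602741 of GRCh38, and its 2500-base canonical transcript has 3 exons. The WT libraries held 50, 71 and 50 reads of PRF1, equal to 1.89, 2.69 and 1.66 CPM. The LSD1 KO libraries held 315, 152 and 349 reads, equal to 11.3, 5.60 and 13.2 CPM. The groups did not overlap, and the lowest LSD1 KO library (replicate 2) and the highest WT library (also replicate 2) came closest. Their counts of 152 and 71 had exact Poisson 95% intervals of 128.8 to 178.2 and 55.5 to 89.6, which cover counting error only. Mean levels were 2.08 ± 0.541 CPM in WT and 10.03 ± 3.95 CPM in LSD1 KO (SD, n = 3 each), a ratio of 4.83. Between libraries with the same replicate number the ratio was 5.96, 2.08 and 7.98, so its size depended on the pair while its direction was the same in 3 of 3.

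The fitted log2 fold change of PRF1 was 2.27 (SE 0.38) without the replicate block and 2.21 (SE 0.35) with it. By size of the rise, with falls not ranked, PRF1 stood at place 11 among the 14800 genes with a mean of at least 1 CPM. In the fit with the block it stood at place 14. Of all genes tested, 4.23% had every LSD1 KO library above every WT library and 3.51% had every one below. Because PRF1 was selected on this contrast, nothing is read from its place among them. In bulk libraries, more cells with PRF1 transcripts and more transcripts per cell cannot be told apart. Per kilobase of transcript it stood at 0.831 CPM in WT, above 21.7% of the tested genes, and at 4.01 CPM in LSD1 KO, above 44.4%.

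**Figure D2:**
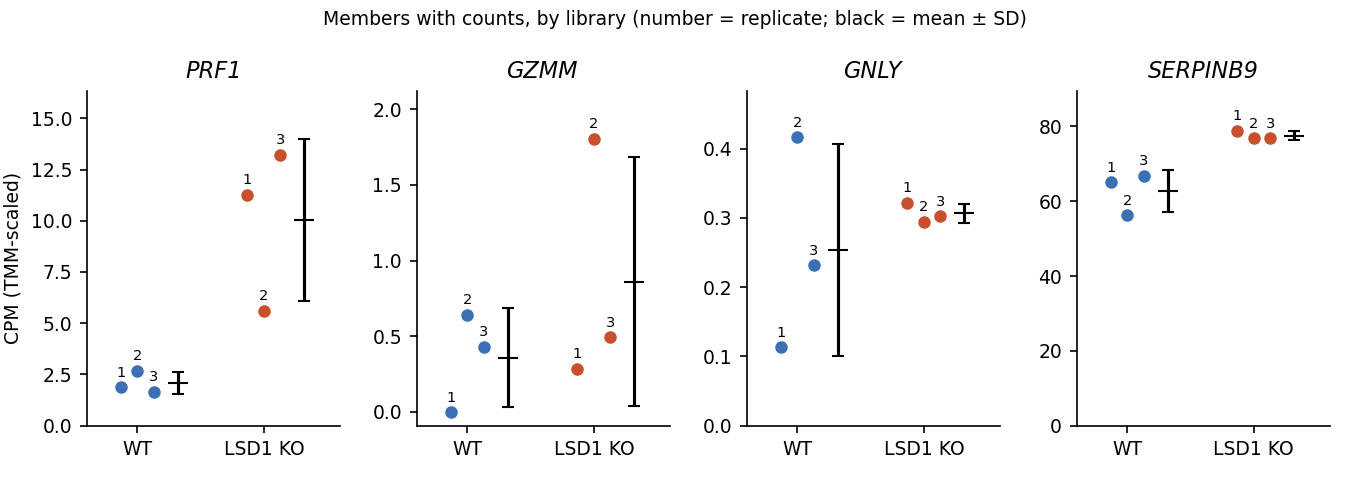
Levels in CPM (TMM-scaled, linear axis, a separate scale for each gene) of the 4 members with reads, for 3 WT libraries (blue) and 3 LSD1 KO libraries (orange), numbered by replicate, with mean ± SD in black. PRF1 lies between 1.66 and 2.69 CPM in WT and between 5.60 and 13.2 CPM in LSD1 KO, while GZMM and GNLY overlap between the groups.

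Of the proteases that perforin delivers, 4 granzymes had no reads in these cells. GZMA and GZMK, trypsin-like granzymes encoded at chr5:55102646-55110252 and chr5:55024256-55034570, had 0 reads in each of the 6 libraries. GZMB, the granzyme that cleaves after aspartate, and its neighbor GZMH also had 0 reads in each library. They lie at chr14:24630954-24634190 and chr14:24606480-24609685. By the floor of 3 counts, a count of 0 allows a level of up to 0.0994 to 0.114 CPM, depending on the library. These 4 genes could not be tested, and no fold change is given for them.

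GZMM and GNLY were present as a few reads. GZMM, a granzyme of natural killer cells encoded at chr19:544053-549922, had 0, 17 and 13 reads in WT and 8, 49 and 13 reads in LSD1 KO. In CPM the levels were 0, 0.644 and 0.431 in WT and 0.286, 1.81 and 0.492 in LSD1 KO. The groups overlapped, replicate 2 was the highest library in each of them, and LSD1 KO was the higher library in each of the 3 numbered pairs. The means of 0.358 ± 0.328 and 0.861 ± 0.824 CPM (SD, n = 3 each) differed by less than the SD within LSD1 KO, and the log2 fold change was 1.25 (SE 1.01). GNLY, at chr2:85694358-85698852, had 3, 11 and 7 reads in WT and 9, 8 and 8 reads in LSD1 KO. The groups overlapped, with means of 0.254 ± 0.153 and 0.306 ± 0.0139 CPM (SD, n = 3 each) near the floor, and the gene did not pass the filter on low counts.

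SERPINB9, the granzyme B inhibitor at chr6:2887270-2903309, was the most abundant member. Its levels were 65.1, 56.3 and 66.8 CPM in WT and 78.9, 76.9 and 76.9 CPM in LSD1 KO. All 3 LSD1 KO libraries lay above all 3 WT libraries, with means of 77.6 ± 1.15 and 62.7 ± 5.63 CPM (SD, n = 3 each). The ratio was 1.24, and 1.21, 1.37 and 1.15 between libraries of the same number. The log2 fold change of 0.31 (SE 0.15) was smaller than that of PRF1. Of the 8 members, 3 passed the filter on low counts, PRF1, GZMM and SERPINB9. LSD1 KO lay wholly above WT for PRF1 and SERPINB9, as for 4.23% of all genes tested, and nothing is read from this count, since the rule used the contrast.

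Per kilobase of transcript, SERPINB9 stood highest in both groups, at 15.1 CPM in WT and 18.7 CPM in LSD1 KO. PRF1 came next, and its range over the WT libraries (0.663 to 1.08 CPM per kilobase) overlapped that of GZMM (0 to 0.696). GNLY followed with 0.146 to 0.536 CPM per kilobase and also overlapped GZMM. In LSD1 KO, PRF1 (2.24 to 5.29) lay above GZMM (0.310 to 1.95) and GNLY (0.379 to 0.414), and the latter genes overlapped. The order was thus SERPINB9, PRF1, GZMM and GNLY by group mean, with GZMM not separated from PRF1 in WT nor from GNLY in either group. The remaining 4 granzymes were at 0.

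Some of the reads could belong to more than 1 gene. In GENCODE v44lift37, PRF1 overlaps PALD1 on the opposite strand. Of the 2567 words of 31 bases in PRF1 transcripts, 6.66% also occur in PALD1 transcripts, with reverse complements counted as matches. Those 171 words make up 1.34% of the words of PALD1 and lie in 4 of its 14 transcripts. The authors counted reads against a different GENCODE release, in which this overlap was not examined, and by RefSeq positions the 2 genes do not overlap. The sources used here do not state whether strand was used in the counting. GZMB shares 6.14% of its words with GZMH, and GZMK shares 43.2% with a gene on the other strand, ENSG00000240535. SERPINB9 shares the most with MFN1, 3.79%, and GZMM shares none with any gene.

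Lists of 106 further genes of the pathway were examined, of which 77 passed the filter on low counts and were tested. Their log2 fold changes ran from -0.52 to 0.85, with a median of 0.0026, against 0.00082 over all genes. Because PRF1 was selected on this contrast, nothing is read from its larger value. Without the replicate block, edgeR called 0 of the 77, and DESeq2 called 0. None of the 77 had an unadjusted edgeR p under 0.05, beside 552 of the 17672 genes tested. With the block 1 was called, SERPINB1. Every LSD1 KO library lay above every WT library for 3 of the 77, RAB27A, STAT4 and RBPJ, and below for 1, LAMP1, beside 4.23% above and 3.51% below over all genes. With DESeq2 and the block, 1 of the 77 was called higher, SERPINB1, and 3 lower, LMNB1, CALR and LAMP1. Over all genes, that fit called 351 higher and 242 lower among the 14973 it gave a q value, and nothing about the lists is read from these counts.

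Among 16 genes for granule matrix, granzyme processing and granule membrane, 11 were tested and edgeR called 0 in either direction, with or without the block, with a median log2 fold change of -0.02. LAMP1, the lysosomal membrane glycoprotein that marks degranulation, had the largest value, at 254.6 ± 5.96 CPM in WT and 207.4 ± 14.5 CPM in LSD1 KO. Its log2 fold change was -0.30 (SE 0.15, edgeR q = 0.999), and with DESeq2 and the block q was 0.0923. CALR, the chaperone calreticulin, which is stored with perforin, followed at -0.27 (SE 0.20, edgeR q = 0.999), with q = 0.0693 in DESeq2 with the block. Both were lower in LSD1 KO in 3 of 3 numbered pairs. A fit without both libraries numbered 2 and with the block was added after seeing the data. It called 1055 of 18043 genes, among them CALR at -0.27 (edgeR q = 0.0845) and CTSH, of the same list, at 0.50 (edgeR q = 0.0223). The cargo genes of lymphocytes were near 0: SRGN, the proteoglycan of the granule matrix, had at most 2 reads in a library, NKG7 and CST7 at most 1 and FASLG at most 2.

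The exocytosis list held 20 genes for docking, priming and fusion of lytic granules, 19 of which were tested. Neither edgeR nor DESeq2 called any of them, with or without the block, and the median log2 fold change was 0.02. UNC13D, STX11, STXBP2 and RAB27A, whose loss impairs lytic granule release in humans, were all read, with log2 fold changes from -0.11 to 0.28. The largest values were those of WAS, the Wiskott-Aldrich actin regulator, at -0.52 (SE 0.65, edgeR q = 0.999), and SYTL2, a RAB27A effector, at 0.46 (SE 0.27, edgeR q = 0.999). SYTL2 was at 16.7 to 16.8 CPM in WT and at 21.9, 14.7 and 32.3 CPM in LSD1 KO, so the groups overlapped through replicate 2. Without both libraries numbered 2 and with the block, its value was 0.66 (edgeR q = 0.00549). That setting was added after seeing the data and called 1055 of 18043 genes.

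The 26 granzyme substrates and death effectors were all tested, and edgeR called 0 with or without the block, with a median log2 fold change of -0.10. LMNB1, which encodes the nuclear lamina protein lamin B1, was at 229.8 ± 30.9 CPM in WT and 184.6 ± 33.9 CPM in LSD1 KO, a log2 fold change of -0.32 (SE 0.19, edgeR q = 0.999). It was lower in 3 of 3 numbered pairs, and q was 0.0445 in DESeq2 with the block. PARP1, a DNA repair enzyme cleaved during cell death, was called without both libraries numbered 2 and with the block, at -0.47 (edgeR q = 0.00338). This setting, added after seeing the data, called 1055 of 18043 genes. MCL1, an inhibitor of apoptosis, was at 210.7 ± 4.05 and 260.2 ± 91.8 CPM, with 365.7 CPM in LSD1 KO replicate 2 and 198.4 and 216.6 CPM in the others. BID, which granzyme B cleaves, had a log2 fold change of -0.01 (SE 0.22).

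Apart from ASTN2, genes for other proteins with the pore-forming MACPF fold of perforin had few or no reads. Of 11 genes, 6 had 0 reads in every library, among them the complement genes C6, C8A, C8B and C9. MPEG1, which encodes perforin-2 of macrophages, had at most 1 read. ASTN2, an astrotactin of neurons, was the 1 gene tested, at 6.89 ± 1.14 CPM in WT and 7.07 ± 1.92 CPM in LSD1 KO, with a log2 fold change of 0.04 (SE 0.28, edgeR q = 0.999).

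Among the other clade B serpins, the protease inhibitor family of SERPINB9, 4 of 12 genes were tested, and their log2 fold changes ranged from 0.02 to 0.85 with a median of 0.31. SERPINB1, an inhibitor of neutrophil proteases, was at 38.0, 72.0 and 60.8 CPM in WT and at 53.7, 169.1 and 85.3 CPM in LSD1 KO. The groups overlapped, although LSD1 KO was the higher library in each of the 3 numbered pairs. The log2 fold change was 0.85 (SE 0.40, edgeR q = 0.999) without the replicate block and 0.74 (SE 0.15, edgeR q = 0.0805) with it. SERPINB6, another intracellular serpin, had a value of 0.29 (SE 0.20, edgeR q = 0.999). Of those not tested, SERPINB4 had 0 reads in each WT library and 0, 11 and 11 in LSD1 KO. SERPINB3 had 0 in each WT library and 0, 0 and 9 in LSD1 KO. SERPINB2 had 0, 0 and 1 reads in WT and 2, 9 and 3 in LSD1 KO, and SERPINB7 had 10, 0 and 0 in WT and 1, 0 and 4 in LSD1 KO.

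Transcription factors that control perforin and granzymes in lymphocytes made up 21 genes, 16 of which were tested, and neither edgeR nor DESeq2 called any with or without the block, with a median log2 fold change of 0.01. STAT4, which carries interleukin-12 signals, was at 3.04 ± 0.384 CPM in WT and 5.37 ± 2.51 CPM in LSD1 KO. Its log2 fold change was 0.82 (SE 0.36, edgeR q = 0.999), and its LSD1 KO libraries all lay above the WT libraries. RBPJ, the DNA-binding partner of Notch, was at 134.0 ± 18.1 and 174.7 ± 22.1 CPM, a log2 fold change of 0.38 (SE 0.18, edgeR q = 0.999). ETS1, an ETS family factor, was at -0.04 (SE 0.27, edgeR q = 0.999). It was at -0.46 (edgeR q = 0.0305) without both libraries numbered 2 and with the block. That setting was added after seeing the data and called 1055 of 18043 genes. TBX21, which encodes T-bet, had 1 to 8 reads in a library and was not tested, while EOMES, its relative, had 75 to 103.

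**Figure D3:**
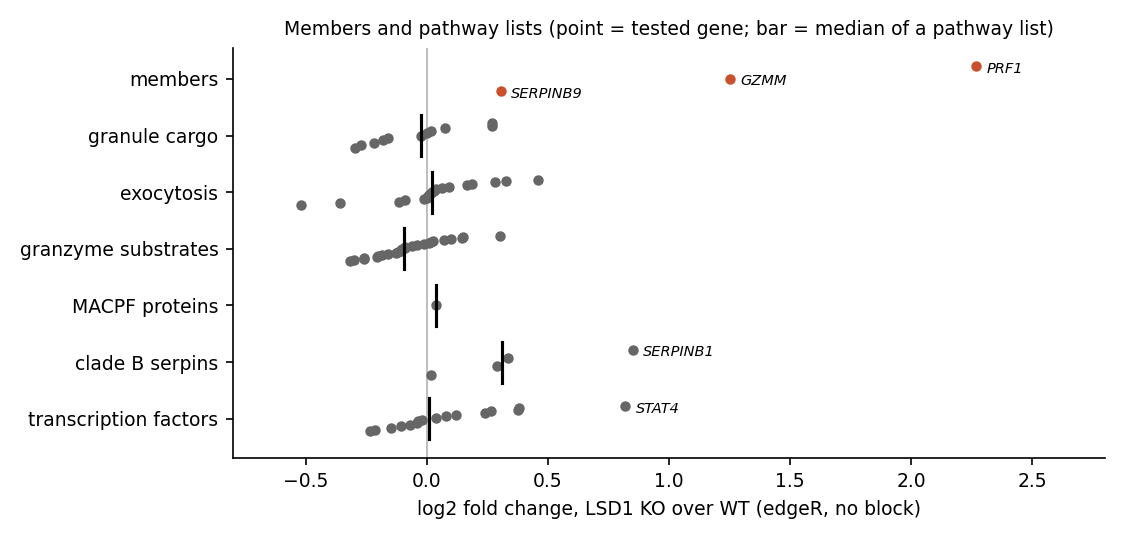
Log2 fold change of LSD1 KO over WT from edgeR without the replicate block (horizontal axis) for each tested gene of the members (orange) and of 6 pathway lists (grey), with a bar at the median of each pathway list. PRF1 stands at 2.27, and the 77 genes of the pathway lists lie between -0.52 and 0.85.

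Markers of T and natural killer cells were examined beside PRF1, since these are the cells that make perforin. Of 25 markers matched (TRBC1 was not), 9 had 0 reads in every library and 21 had at most 10 in every library. CD3D, CD3E, CD2, CD8B, TRAC, TRBC2, FCGR3A, TYROBP and KLRF1 were those at 0, and PTPRC had 3 reads in LSD1 KO replicate 2 and 0 elsewhere. CD8A (8 to 32 reads), KLRD1 (34 to 59), KLRK1 (24 to 40) and NCAM1 (0 to 11) were the 4 above 10 in some library. The summed level of the list was 4.94 to 5.59 CPM in WT and 4.61 to 6.63 CPM in LSD1 KO, so it overlapped between the groups. The 3 markers tested had log2 fold changes of -0.40 (CD8A), -0.06 (KLRK1) and 0.12 (KLRD1), and their groups overlapped. IL2RB, a receptor subunit for interleukin-2, had 0, 2 and 0 reads in WT and 9, 5 and 8 in LSD1 KO. It was not tested, and its LSD1 KO libraries lay wholly above WT, beside 4.23% of all genes tested. Other markers with few reads went either way with overlapping groups: by mean, CD5 was higher in LSD1 KO, and NCAM1 and ZAP70 were lower. The part of these markers in the levels of PRF1 was not tested. Epithelial markers summed to 2456 to 4224 CPM in WT and 2784 to 3570 CPM in LSD1 KO. Of the 9 tested, 3 had a positive log2 fold change, and the median was -0.19. LSD1 KO lay wholly below WT for 2, EPCAM and KRT18, beside 3.51% over all genes. EPCAM was at 204.0 CPM in WT and 104.3 CPM in LSD1 KO (edgeR q = 0.668 without the block and 0.0788 with it). DESeq2 gave EPCAM q = 0.0516 without the block and q = 0.168 with it. KRT19 went the other way, from 831.1 to 1110.3 CPM, higher in 3 of 3 numbered pairs (q = 0.00392 in DESeq2 with the block, edgeR q = 0.123 with it).

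Position on the chromosome was not used in choosing the members. The 5 nearest protein-coding genes on each side of every member made 60 distinct genes that were not members, 44 of which were tested. Without the replicate block edgeR called 0 of them, and the median log2 fold change was 0.04. An unadjusted edgeR p under 0.05 was found for 1 of the 44, beside 552 of the 17672 genes tested. With the block 1 was called, SERPINB1, which lies near SERPINB9 and is given above. DESeq2 called 1 gene, outside these 44, STXBP6 beside GZMB (q = 0.0981). STXBP6 did not pass the edgeR filter on low counts, with 25, 15 and 6 reads in WT and 1, 0 and 0 in LSD1 KO. With DESeq2 and the block, 3 neighbors were called higher and 0 lower. They were SERPINB1, ADAMTS14 beside PRF1, and ST3GAL5 beside GNLY (log2 fold change 0.57, q = 0.0625). Over all genes that fit called 351 higher and 242 lower among 14973, and nothing is read from these counts.

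Around PRF1, 9 of 10 neighbors were tested and their log2 fold changes ran from -0.14 to 0.87. The pair directly beside it is named with its values already known. ADAMTS14, a procollagen-processing metalloproteinase, was between 19.9 and 25.8 CPM in WT and at 54.4, 24.4 and 41.1 CPM in LSD1 KO. As for PRF1, LSD1 KO replicate 2 was the lowest of its group, and here it fell below the highest WT library. The log2 fold change was 0.87 (SE 0.28, edgeR q = 0.999) without the block and 0.81 (edgeR q = 0.132) with it, and DESeq2 with the block gave q = 0.00391. LSD1 KO was the higher library in 3 of 3 numbered pairs, by 2.73, 1.23 and 1.59 times. PALD1, whose transcripts share words with those of PRF1, was at 86.2, 89.5 and 91.9 CPM in WT and at 124.0, 83.4 and 119.8 CPM in LSD1 KO. Its log2 fold change was 0.29 (SE 0.19, edgeR q = 0.999), and its part in the counts of PRF1 was not tested. The other tested neighbors, among them NODAL and SGPL1, lay between -0.14 and 0.25.

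**Figure D4:**
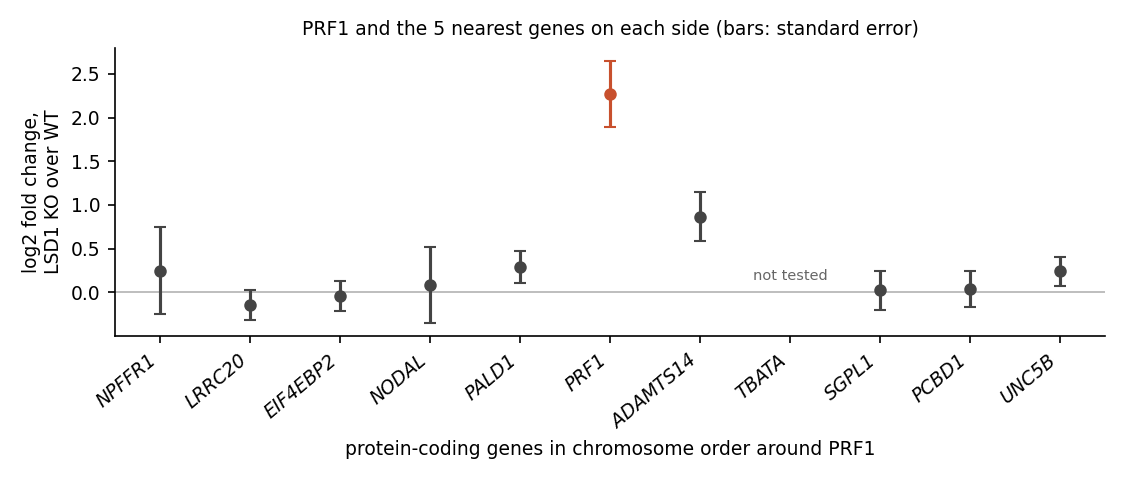
Log2 fold change of LSD1 KO over WT from edgeR without the replicate block (vertical axis, bars are standard errors) for PRF1 and the 5 nearest protein-coding genes on each side, in chromosome order. PRF1 stands at 2.27, ADAMTS14 at 0.87, the other tested genes lie between -0.14 and 0.29, and TBATA was not tested.

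Genes with a pattern most like that of PRF1 were found by Pearson's r of log2 CPM over the 6 libraries, given as a description without a p. The points share their group and replicate number, and the 5 genes are the highest of 17672 examined. RSPO4, a secreted activator of Wnt signaling, had r = 0.994 and stood at 0.640 ± 0.0425 CPM in WT and 1.27 ± 0.223 CPM in LSD1 KO. KRT32, a hair keratin, had r = 0.993, at 0.415 ± 0.167 and 1.70 ± 0.502 CPM. STK39, a kinase that acts on ion cotransporters, had r = 0.988, at 124.8 ± 7.59 and 233.8 ± 47.5 CPM. SLC2A1-DT, a divergent transcript, and EIF3L, a translation initiation factor subunit, had r = 0.986 and 0.984. None of the members was among them, SERPINB9 having r = 0.764 and GZMM r = 0.328.

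**Figure D5:**
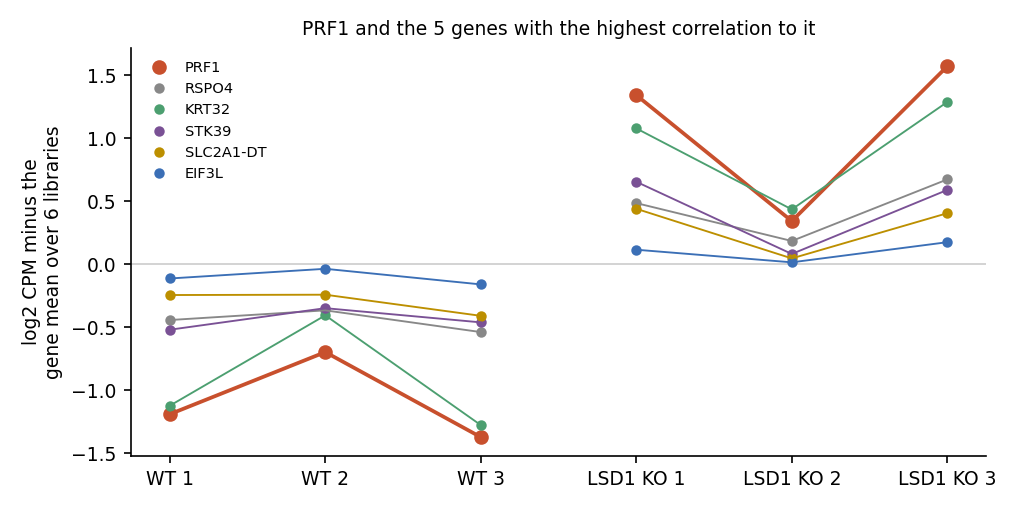
Log2 CPM of PRF1 and the 5 genes most like it, each minus its own mean over 6 libraries (vertical axis), in every library (horizontal axis); lines only join the points of a gene within a group. In PRF1, as in the other 5, LSD1 KO replicate 2 is the lowest library of its group and lies above the WT libraries.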

How the data were processed

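RNA was measured in 3 WT and 3 LSD1 KO libraries of HCT116 cells. Per the labels and the paper's methods, the authors checked reads with FastQC, trimmed them with Trimmomatic 0.39, quantified them with Salmon 1.4.0 against GENCODE on GRCh38 and deposited expected counts (estimated counts) per gene in whole numbers, without library scaling. The step from transcripts to genes is not given in the sources used here. Libraries held 25379279 to 29186963 counts, and intervals and floors cover only counting error. A symbol was found for 58395 of 60240 genes, and 26383 genes had 0 counts in all libraries.

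Counts were compared with edgeR 4.0.16 in R 4.3.3 (TMM, filterByExpr by group, quasi-likelihood test, Benjamini-Hochberg adjustment, q under 0.1), which tested 17672 genes. The SE of an edgeR log2 fold change is its absolute value divided by the square root of the F statistic of that test. Numbers in the labels were checked for pairing: deviations of WT and LSD1 KO libraries from their group means correlated across genes at 0.553, 0.553 and 0.404 for the same number and at -0.516 to 0.0454 for different numbers, so the block fit is given where it changes a call. DESeq2 1.42.0 (Wald test), other size factors, other filters, a threshold of 0.05, leaving out each library, and leaving out both libraries numbered 2 were the alternatives, the last added after seeing the data. Gene positions and promoters came from RefSeq on GRCh38.p14, and transcript lengths and shared words from GENCODE v44lift37, since the deposited counts carry no coordinates.

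The members and the gene lists were chosen with earlier results of these data known. Named were all members, KDM1A and the 5 genes most correlated with PRF1. Every gene of the lists or beside the members that edgeR called with or without the block, on all libraries, was also named. Where a list had none, the 2 genes with the largest absolute log2 fold change were named. Other genes were named with their values known.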

Additional observations from a re-analysis of the deposited data

How the results depend on the processing

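The log2 fold change of PRF1 ranged from 2.02 to 2.77 and that of SERPINB9 from 0.22 to 0.35 over 15 alternatives each. Calls depended on the setting. Over all genes, 1 of 17672 was called in the main fit, 282 of 17672 with the replicate block, and 114 of 33857 when every gene with a count was kept. DESeq2 called 95 of the 25656 genes it gave a q value, and 593 of 14973 with the block. Leaving out 1 library gave 1 to 26 (26 without LSD1 KO replicate 2). Without both libraries numbered 2, a setting added after seeing the data, 22 of 18043 were called, and 1055 of 18043 with the block.

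Members called went from 0 to 1, always PRF1, with the replicate block, with every gene kept, with DESeq2, with DESeq2 and the block, and without both libraries numbered 2 with or without the block; leaving out 1 library gave 0 to 1 (1 without LSD1 KO replicate 2). The rule used this contrast, so nothing is read from these counts. Pathway genes called went from 0 to 1 with the block, 4 with DESeq2 and the block, and 7 without the libraries numbered 2 and with the block. Genes called beside the members went from 0 to 1 with the block, 1 with every gene kept, 1 with DESeq2, 3 with DESeq2 and the block, and 5 without the libraries numbered 2 and with the block, among them PALD1 (log2 fold change 0.44, edgeR q = 0.0149) and ADAMTS14 (1.04, edgeR q = 6.25e-05). The calls over all genes in the same settings are given above, and nothing about the lists or neighbors is read from these counts. Apart from the fewer libraries or genes entered, the cause of the differences between settings was not tested. The low counts of GZMM and GNLY limit their comparison. For the 4 granzymes at 0, limited depth and absent transcripts cannot be told apart.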
